A study of Mus musculus with 4 samples.

Results

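PTHrP given for 1 h to mouse CH10T1/2 cells that carry the R150C form of its receptor is described here. CH10T1/2 is a line of embryonic fibroblasts with the capacity to form several mesenchymal tissues, cartilage among them. The series measured the cells on Affymetrix Mouse Genome 430A 2.0 arrays, and its title names IGFBP-3, a binding protein of insulin-like growth factors, as a gene under Gli control in cartilage tumours. The comparison uses 2 of its 4 arrays: the R150C line with 1e-07 M PTHrP, and the R150C line with carrier alone. The line was stably transfected with the R150C variant of PTHR1, a variant found in enchondromas, which are benign cartilage tumours. The other arrays, set beside these only where stated, are of a line that carries the wild type receptor (the WT line), with PTHrP and as control. Carrier is stated for the WT control in the series text but not in the labels of that sample. All cells spent the night before treatment in serum-free medium. Each receptor is represented by 1 transfected line, so receptor and line cannot be told apart, and the labels do not say what drives the transgene or whether a line is 1 clone.

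PTHrP is a secreted peptide that acts through the same receptor as parathyroid hormone. The receptor couples to the G protein Gs, which switches on adenylyl cyclase. The cyclic AMP this makes frees the catalytic subunits of protein kinase A (PKA), and PKA phosphorylates the transcription factor CREB at genes that hold a cyclic AMP response element (CRE) in their promoter. The receptor can also couple to Gq, phospholipase C and protein kinase C. In the growth plate, PTHrP keeps chondrocytes dividing and delays their maturation, in a loop with Indian hedgehog. Transcripts that appear within the first hour in such systems are mostly direct targets of CREB and other factors already present in the cell.

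All 22626 probe sets that are not Affymetrix controls entered the comparison. A probe set is a group of short oligonucleotides on the array that reads 1 transcript, and its deposited value is a fluorescence signal on a linear scale. Differences below are PTHrP minus carrier on the scale log2(signal + 16), after each array's median was subtracted, and they understate the change of dim probe sets. A probe set was kept where the mean of both R150C arrays reached its median over probe sets, a signal of 46.4. This left 11313 probe sets of 6952 named genes. Of these genes, 2390 had 2 or more kept probe sets and 4562 had 1. With 1 array a side there is no replicate error and no test. The available check is whether the probe sets of a gene read the same difference, but these share the RNA and the array and are not replicates.

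Some readings of the arrays themselves moved with PTHrP. The ratio of 3' to 5' signal of the Gapdh control probe sets, a sign of RNA or labelling quality, was 0.991 with carrier and 1.21 with PTHrP in the R150C line. In the WT line it was 0.845 in the control and 1.17 with PTHrP. The same ratio for beta-actin was 2.13 and 2.31 in the R150C line, and 1.42 and 2.39 in the WT line. The WT control array, lowest on both ratios, enters all WT differences below and the contrast of the lines without PTHrP. Of 9 spike control probe sets, 7 were lower with PTHrP in the R150C line, with a median difference of -0.12. The part of these shifts in the gene differences was not tested. The median signal was 48.1 with carrier and 45.8 with PTHrP, although the trimmed mean was equal. The 11 genes listed as markers of fibroblasts and mesenchyme were all kept on both arrays: vimentin (Vim) read 8835.7 with carrier and 7884.8 with PTHrP, and Pdgfra, the dimmest, 114.3 and 114.9. Among markers of other cell types, 2 of 16 macrophage and blood genes, 4 of 12 endothelial, 2 of 11 epithelial, 2 of 10 neuronal and 3 of 8 adipocyte genes were kept. The summed signals over these lists, with carrier and then PTHrP, were 460.3 and 416 for blood, 552.3 and 453.1 for endothelium, and 342.6 and 264.4 for epithelium. They were 455.4 and 520.7 for neurons, and 409.2 and 359.3 for adipocytes. Of 14 muscle genes 5 were kept, led by the contractile genes Acta2 and Tagln, which fibroblasts also express, with summed signals of 7573.9 and 7248.3. The part of these other markers in the gene differences was not tested.

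The differences between the R150C arrays were small. Over the kept probe sets their median was 0.04 with an SD of 0.25, and 95% lay between -0.45 and 0.55. At least 2-fold higher with PTHrP were 22 probe sets (0.194%), and at least 2-fold lower were 8 (0.0707%). Without the subtraction of the medians these counts were 15 and 11. At 1.5-fold, 214 probe sets were higher (1.89%) and 116 lower (1.03%), or 148 and 161 without the subtraction, so the balance between higher and lower depends on the scaling. The spread narrowed with brightness, from an SD of 0.30 in the dimmest of 4 equal bins to 0.20 in the brightest. In the dimmest bin 70 probe sets were 1.5-fold higher and 72 lower, and in the brightest 36 and 3.

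**Figure D1:**
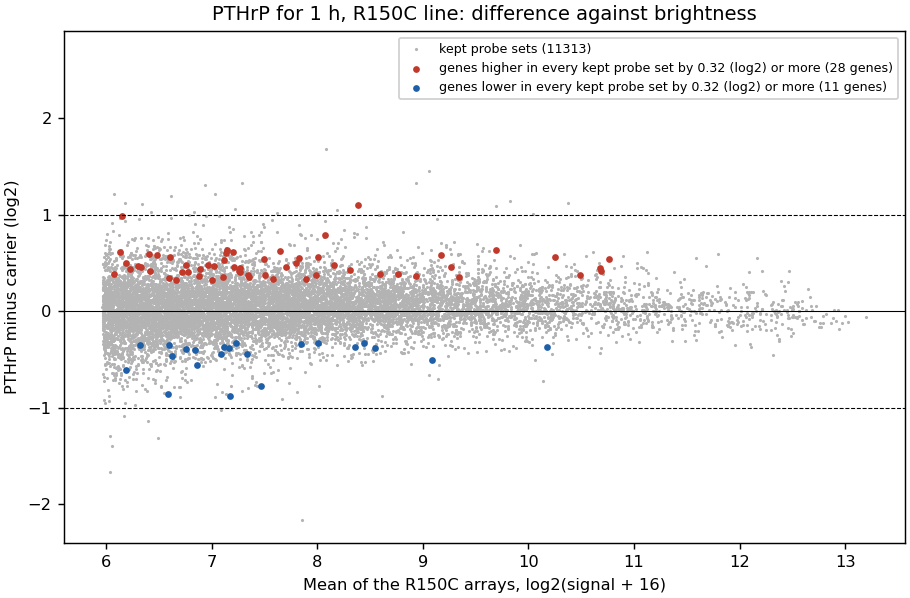
Each grey point is 1 of the 11313 kept probe sets, with the mean log2(signal + 16) of both R150C arrays across and PTHrP minus carrier (log2) up; dashed lines mark 2-fold. Red and blue points are the kept probe sets of the 28 genes that were higher, and the 11 that were lower, by 0.32 or more in every kept probe set, and all but 1 of these, a probe set of Akr7a5 at 1.10, lie inside the 2-fold lines.

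Different probe sets of a gene rarely read the same difference. Between the brightest and the second brightest probe set of the 2390 genes, the correlation of the differences across genes was 0.073, given as a description, since genes are not independent replicates. The same measure was 0.535 for the R150C line against the WT line without PTHrP, a contrast that uses the same carrier array, and 0.166 for PTHrP in the WT line. The signs of the pair matched in 52.6% of genes for PTHrP in the R150C line. Of 57 genes whose brightest probe set differed by at least 1.5-fold, 33 had a second probe set with the same sign and 10 had one that differed by at least 0.32 (log2) the same way. In the line contrast these counts were 308, 252 and 176, so the same probe sets more often gave matching readings where the lines were compared.

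**Figure D2:**
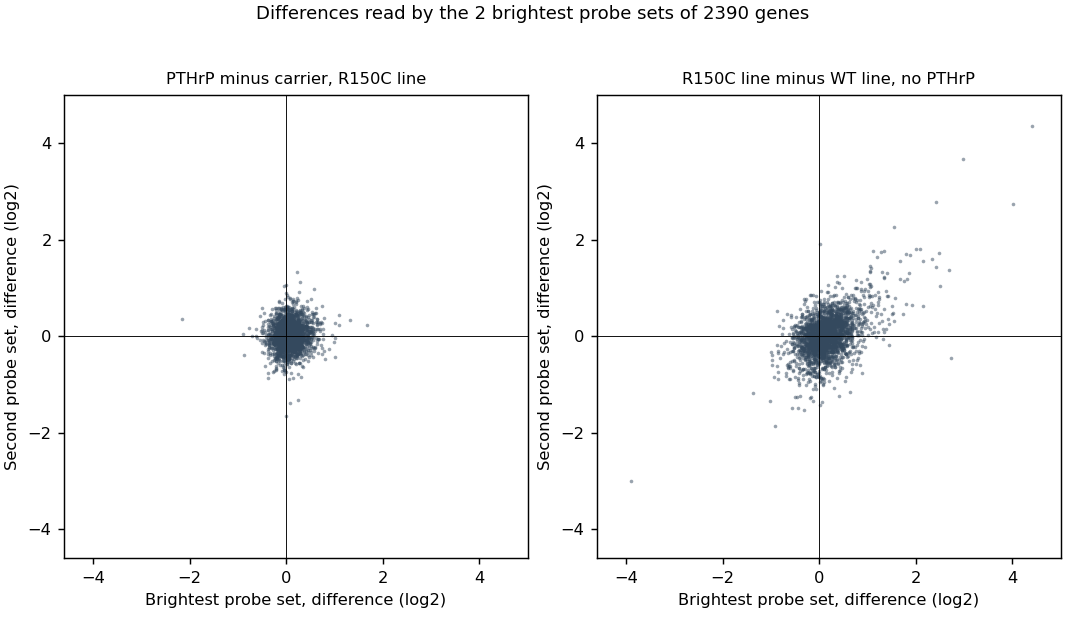
Each point is 1 of 2390 genes, with the difference (log2) read by its brightest probe set across and by its second probe set up, for PTHrP in the R150C line (left) and for the R150C line against the WT line (right). The left cloud is round (r = 0.073), while the right one has an arm along the diagonal (r = 0.535).

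No gene with 2 or more kept probe sets was at least 1.5-fold higher, or at least 1.5-fold lower, in all of them (0 of 2390, or 0%, each way). By at least 0.32 (log2), 28 genes were higher in all kept probe sets (1.17%) and 11 lower (0.46%). Without the subtraction of the medians, 15 genes were higher and 14 lower. All kept probe sets had the same sign in 1072 of the 2390 genes (44.9%), 676 above 0 and 396 below. The 10 genes in each direction with the largest smallest difference are given next. They were picked for these differences, so the values are a description.

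Among the higher genes, 3 act in the nucleus on chromatin or RNA. Ing1, a chromatin reader of the inhibitor of growth family, read 58.5 with carrier and 91.2 with PTHrP on 1 probe set and 105.5 and 162.7 on the other (differences 0.58 and 0.61). Hnrnpc, which coats nascent messenger RNA, read 174.9 and 244.3, and 1454.5 and 2039.7 (0.50 and 0.54). Safb, a nuclear scaffold attachment factor, read 53.8 and 76.4, and 175.5 and 253.8 (0.46 and 0.55). In each of these genes both kept probe sets gave a similar step, which the choice of genes favours. For Hnrnpc and Safb one probe set was much brighter than the other. In the WT line the same probe sets differed in sign: 0.54 and -0.46 for Ing1, -0.23 and 0.41 for Hnrnpc, and -0.02 and 0.15 for Safb. E2f1, the cell cycle transcription factor, read 49.6 and 69.6, and 230.4 and 314.1 (0.44 and 0.47).

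The other 6 higher genes include a member of the receptor pathway and a hedgehog coreceptor. Adcy3, an adenylyl cyclase and so an enzyme that makes cyclic AMP, read 100.5 with carrier and 154.5 with PTHrP, and 52.2 and 75.2 on its second kept probe set (0.60 and 0.47). Its probe sets under the filter gave 0.30 and -0.17. Gas1, a membrane-anchored coreceptor for hedgehog ligands, read 136.1 and 197.6, and 113.0 and 154.6 (0.54 and 0.46). On the WT arrays the Gas1 probe sets read 2394.3 and 1088.3 in the control and 2595.6 and 1014.7 with PTHrP. Gas1 was therefore far dimmer on both R150C arrays than on either WT array, with or without PTHrP. Slc6a9, a glycine transporter, read 148.6 and 228.0, and 91.9 and 129.2 (0.62 and 0.48). Spcs1, a subunit of the signal peptidase of the endoplasmic reticulum, read 1007.1 and 1434.4, and 1408.8 and 1861.0 (0.56 and 0.45). In Ube2w, a ubiquitin-conjugating enzyme, and Akr7a5, an aldo-keto reductase, the probe sets shared the sign and differed in size. Ube2w read 199.8 and 291.6 on the brighter probe set and 35.5 and 82.2 on the dimmer (0.56 and 0.98). Akr7a5 read 118.6 and 160.7, and 217.2 and 465.0 (0.45 and 1.10).

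The lower genes include cell surface, matrix and stress response genes. Clu, the secreted chaperone clusterin, read 75.6 with carrier and 41.8 with PTHrP, and 175.9 and 119.9 on its other kept probe set (-0.61 and -0.45). Of the 2 Clu probe sets under the filter, 1 read 49.8 and 34.5 (-0.33) and 1 went the other way, at 35.4 and 42.8 (0.25). Hspb1, a small heat shock protein, read 363.8 and 267.5, and 115.8 and 54.0 (-0.37 and -0.86). Itga5, the alpha subunit of the fibronectin receptor, read 1323.3 and 984.1, and 218.7 and 116.5 (-0.37 and -0.77). For Hspb1 and Itga5 the dimmer probe set gave the larger difference. Loxl4, a lysyl oxidase family member that crosslinks matrix, read 248.5 and 185.2, and 127.5 and 78.2 (-0.34 and -0.55).

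The remaining lower genes act inside the cell. Flcn, the folliculin gene, read 118.4 and 82.2, and 183.3 and 88.5 (-0.40 and -0.88), while its probe set under the filter read 6.3 and 12.7. Ufd1, a ubiquitin recognition factor, read 144.3 and 103.4, and 151.0 and 107.6 (-0.37 and -0.38). Aida, an axin-interacting protein gene, read 418.8 and 305.1, and 145.9 and 98.5 (-0.38 and -0.45). Both probe sets of Ufd1 and of Aida gave nearly the same step, which the choice of genes favours here too. H2ac19, a histone gene with close copies whose transcripts its probe sets may not separate, read 76.1 and 53.6, and 102.1 and 66.3 (-0.35 and -0.47). Mepce, an RNA capping enzyme, read 95 and 67.9, and 155.9 and 115.4 (-0.35 and -0.33). Zc3h15, a zinc finger gene, read 641.8 and 431.4, and 278.1 and 209.2 (-0.50 and -0.33).

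**Figure D3:**
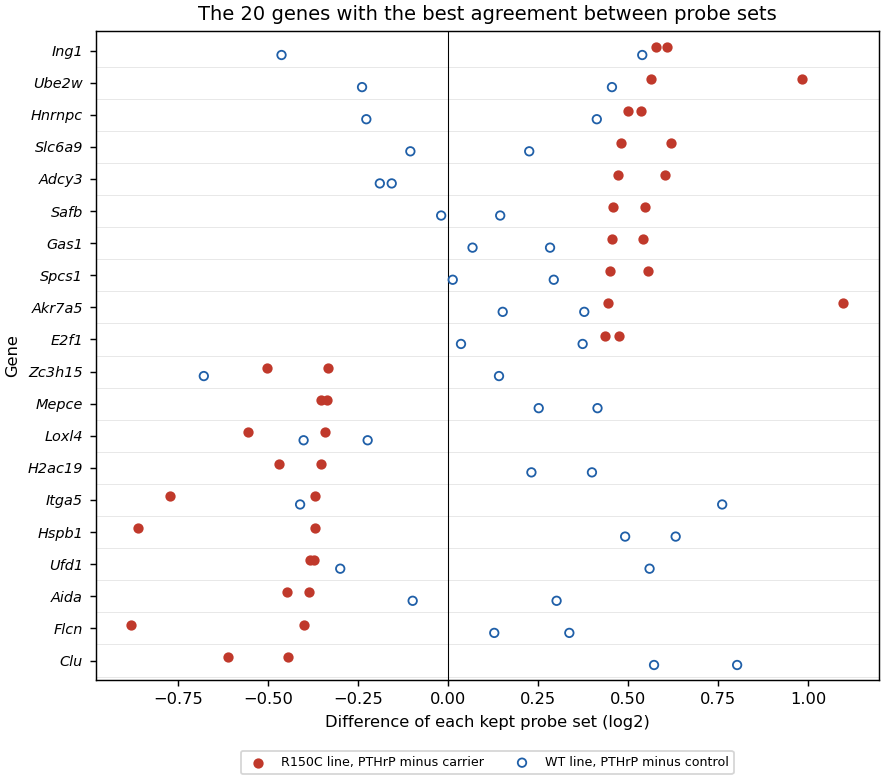
Differences (log2, across) of each kept probe set for the 20 genes with the largest smallest difference, 10 each way, with 1 row a gene. Filled red points are PTHrP minus carrier in the R150C line and open blue points PTHrP minus control in the WT line. The red points of a gene lie on 1 side of 0 because the genes were chosen so; the blue points of Ing1, Ube2w and Hnrnpc lie on both sides, and those of Clu, Flcn and Hspb1 all lie above 0.

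The higher genes were mostly above 0 in the WT line too, as were the lower genes. The median gene difference of the 28 higher genes was 0.48 in the R150C line and 0.18 in the WT line, and that of the 11 lower genes -0.42 and 0.18. All 2390 genes had a median of 0.12 in the WT line. Of the 28 genes 25 were above 0 in the WT line (89.3%), and of the 11 lower genes 9 were (81.8%), against 66.7% of the 2390. All kept probe sets lay on the same side of 0 in both lines in 17 of the 28 and on opposite sides in 2. For the 11 lower genes these counts were 1 and 5. Of all 1072 genes whose kept probe sets had 1 sign in the R150C line, 400 (37.3%) had them all on the same side in the WT line and 195 (18.2%) all on the other. Those 1072 pool genes above and below 0 in the R150C line. The comparisons share no array, and the WT comparison as a whole lay above 0. Of the 2390 genes, 960 had all kept probe sets above 0 in the WT line and 218 all below 0. Loxl4 was lower on both probe sets in both lines (-0.22 and -0.40 in the WT line). In the WT line 191 genes were higher by at least 0.32 in all kept probe sets (7.99%) and 14 lower (0.586%).

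The largest single readings did not recur in other probe sets of their gene. Of the 30 probe sets at least 2-fold apart, 16 belonged to a gene with another kept probe set. In 5 of the 16 all other kept probe sets had the same sign, in 1 (Akr7a5) all differed by at least 0.32, and in none was another at least 2-fold apart. Probe sets with the suffix _x_at, which by design can bind transcripts of more than 1 gene, made up 10 of the 30 (33.3%) and 8.26% of all kept probe sets. Of the genes named above, both kept Clu probe sets and the larger differences of Flcn, Hspb1, H2ac19 and Akr7a5 carry this suffix. A probe set of Ptpn2, a tyrosine phosphatase, had the highest difference, 1.68 (138.4 with carrier, 460.0 with PTHrP), while the gene's other kept probe sets gave 0.23 and -0.10. A probe set of Srsf3, a splicing factor, gave 1.33 (298.7 and 747.9), and its other kept probe sets 0.17 to 0.44. On the WT arrays that Srsf3 probe set read 623.6 and 561.6, so the R150C carrier array was the low one of the 4. A probe set of the chemokine-like gene Cklf gave 1.32 (84.6 and 226.7), and the other kept ones 0.00 and 0.34. The 2 remaining of the 5 highest have no gene symbol here, at 1.46 (312.0 and 851.0) and 1.30 (63.6 and 173.3). The lowest value, -2.16, was of a probe set of Gpaa1, a subunit of the transamidase that attaches lipid anchors. It read 484.0 with carrier and 91.5 with PTHrP, and 64.2 and 125.9 on the WT arrays, so the carrier reading stood apart from the other 3. The other kept probe sets of Gpaa1 gave 0.36 and -0.05. A probe set of Diaph1, a formin, gave -1.66 (102.6 and 20.1), and the gene's brighter one 0.00. A probe set of Anxa2, an annexin, gave -1.39 (94.1 and 24.4), while the gene's brighter probe set read 5218.7 and 5303.6 (0.08). The last of the 5 lowest were a probe set of Zdhhc6, a palmitoyltransferase, at -1.32 (128.8 and 40.0), whose gene's other probe set gave 0.24, and the only one of Lce1h, a cornified envelope gene, at -1.30 (88.7 and 25.1).

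In the pathway lists that follow, a gene stands with the median of its kept probe sets, and higher and lower mean a difference of at least 0.32 (log2). The background is 646 of the 6952 kept genes higher (9.29%) and 314 lower (4.52%), with a median of 0.04. Without the subtraction of the array medians, 425 were higher and 473 lower, and the median was -0.01. By sign, 4122 of the 6952 were above 0 and 2830 below. Of the 2390 genes with 2 or more kept probe sets, 676 were above 0 in all and 396 below 0 in all. These sign counts depend on the centring too. Lists overlap, and a gene with 1 kept probe set has no agreement check.

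The receptor itself gave no usable signal. The Pth1r probe set read 3.4 with carrier and 3.2 with PTHrP, far under the filter, and need not bind the transgene's transcript. Of the list of receptor, G protein and PKA genes, 25 of 36 on the array were kept, with a median difference of 0.10, and 3 were higher and 1 lower. All kept probe sets were above 0 in 6 of the 12 members with more than 1, and below 0 in none. Besides Adcy3, the largest differences were of Gng10, a G protein gamma subunit, at 0.59 (495.8 with carrier, 727.8 with PTHrP), and Prkar2a, a regulatory subunit of PKA, at -0.57 (72.3 and 41.5). Prkar2a, read by 1 probe set, also differed by -0.56 in the WT line (97.7 and 52.7). Akap2, an anchor of PKA, was just short of the threshold at -0.32 (533.6 and 409.5). The Gs alpha gene Gnas gave 0.03 (3140.0 and 3083.5) and the PKA catalytic subunit gene Prkaca -0.10 (323.0 and 288.7). Gnas and Prkaca, chosen after their values were seen, lay within the central 95% of all kept probe sets. Gng10, Prkar2a and the brighter kept probe set of Adcy3 (0.60) lay outside it, and the other kept Adcy3 probe set (0.47) inside. These genes were named for large differences, which favours a place outside. In the dimmest brightness bin, which holds Prkar2a, the central 95% ran from -0.59 to 0.58, so Prkar2a lay inside that range. Gng10 and the brighter Adcy3 probe set lay outside the ranges of their own bins (-0.30 to 0.49 and -0.47 to 0.59).

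CREB genes and their coactivators showed little difference as a list. Of 13 kept genes of 16, 1 was higher and 1 lower, with a median of 0.05 that was below 0 without centring (-0.01). Creb1, which encodes CREB, differed by -0.93 on its kept probe set (75.7 and 30.5). Its other 3 probe sets, below the filter, gave -0.19, -0.02 and -0.10, and the median over all 4 was -0.15. The probe sets of Creb1 therefore did not repeat the size of the difference. Crebbp, a coactivator of CREB, gave 0.44 (45.4 and 64.5) on 1 probe set, and Ppp1cc, a phosphatase subunit, 0.23 and 0.30. Among genes of cyclic AMP breakdown and feedback, 9 of 19 were kept, none past 0.32 either way, with a median of -0.01. The phosphodiesterase gene Pde4a gave -0.20 (63.7 and 50.8). Pde8a, another, gave -0.12 (167.5 and 146.8), or 0.16 with its dim probe set. Pkig, a PKA inhibitor, gave 0.33 and 0.03, and Akap12, a scaffold, 0.06 (1005.0 and 1010.1). Pde4b stayed under the filter, at 35.1 and 37.8 on its brighter probe set, and no probe set was matched to Pde4d.

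Early targets of cyclic AMP and CREB lay slightly below the other genes. Of 42 genes on the array 31 were kept, with a median of -0.06, and 2 were higher and 5 lower (6.45% and 16.1%). By sign, 10 were above 0 and 21 below. All 8 members with more than 1 kept probe set had 1 sign throughout, 4 above 0 and 4 below, against 44.9% of all such genes. Per1, a clock gene with a known CREB response, had the largest difference, 0.97, on its only probe set, which read 55.5 with carrier and 118.7 with PTHrP. Per1 in the WT line read 69.4 in the control and 89.1 with PTHrP (0.47). Sgk1, a kinase gene, gave 0.41 (1447.4 and 1854.7). Other well known early targets showed smaller differences: Nr4a1, an orphan nuclear receptor, read 940.6 and 952.5 (0.07), and Fos, an AP-1 subunit, 127.5 and 110.7 (-0.13). Sik1, a kinase that restrains CREB coactivators, read 100.2 and 80.8 (-0.21), and Rgs2, which turns off G proteins, 60 and 57.8 (0.01). The second Rgs2 probe set, under the filter, read 35.4 and 49.7 (0.41), and the median over both was 0.21. Crem (43.6 and 42.4) and Nr4a2 (46.2 and 27.3) were under the filter.

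On the lower side stood Ptgs2, the inducible cyclooxygenase, which read 1901.1 and 1542.3 on 1 probe set and 1454.9 and 844.7 on the other (-0.25 and -0.72). Junb, an AP-1 subunit, read 615.3 and 456.8 (-0.36), Fosb, another subunit, 137.2 and 98.9 (-0.36), and Inhba, an activin subunit, 512.0 and 386.8 (-0.34). Maff, a small Maf factor, read 332.2 and 251.5 (-0.33). Only Ptgs2 of these 5 has a second kept probe set. Its differences in the WT line were negative too, with a gene median of -0.68. Tiparp, a target gene with 3 kept probe sets, gave -0.14 to -0.26, and Btg2, an antiproliferative gene, -0.08 and -0.43. Hbegf, an EGF receptor ligand, gave 0.06 and 0.10, and Has2, a hyaluronan synthase, 0.05 and 0.12.

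The promoters of 4 of these genes are shown to set their CRE sequences beside the readings. Each is the 250 bases before the transcript start, 5' to 3' along the gene, from RefSeq on GRCm38.p6, with the palindrome TGACGTCA or its core TGACG in capitals. On the other strand the core is written CGTCA. The Per1 window is chr11:69099902-69100151 on the plus strand, that of Dusp1 chr17:26508473-26508722 on the minus strand, that of Nr4a1 chr15:101266596-101266845 on the plus strand, and that of Fos chr12:85473640-85473889 on the plus strand.
Per1: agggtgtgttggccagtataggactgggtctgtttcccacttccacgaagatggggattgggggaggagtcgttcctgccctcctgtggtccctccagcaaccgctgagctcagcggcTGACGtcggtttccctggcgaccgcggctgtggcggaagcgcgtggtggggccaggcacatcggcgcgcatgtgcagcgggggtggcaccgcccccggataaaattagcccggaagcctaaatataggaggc
Dusp1: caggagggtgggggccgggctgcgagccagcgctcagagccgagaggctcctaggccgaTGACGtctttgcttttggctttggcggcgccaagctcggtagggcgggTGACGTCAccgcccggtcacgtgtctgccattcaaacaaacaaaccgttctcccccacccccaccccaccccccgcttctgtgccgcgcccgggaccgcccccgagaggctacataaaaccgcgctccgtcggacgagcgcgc
Nr4a1: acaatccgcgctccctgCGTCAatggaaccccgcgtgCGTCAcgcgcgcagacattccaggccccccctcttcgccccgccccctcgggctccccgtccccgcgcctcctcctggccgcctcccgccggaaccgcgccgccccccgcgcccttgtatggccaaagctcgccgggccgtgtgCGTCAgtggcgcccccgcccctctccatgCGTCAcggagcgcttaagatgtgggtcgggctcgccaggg
Fos: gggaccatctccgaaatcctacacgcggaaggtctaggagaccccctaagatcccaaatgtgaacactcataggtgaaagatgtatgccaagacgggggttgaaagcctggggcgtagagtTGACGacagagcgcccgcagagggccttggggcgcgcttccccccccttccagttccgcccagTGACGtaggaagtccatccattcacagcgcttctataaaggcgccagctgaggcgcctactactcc
The full palindrome stood in the Dusp1 window, 143 bases before the start, while the Dusp1 signal was 302.9 with carrier and 286.7 with PTHrP (-0.02). The Per1 window held the core once, 132 bases before the start. Nr4a1 held the core 4 times and Fos held it at 2 places. A second RefSeq start of Per1, with the window chr11:69098699-69098948, held the core once. The core, on either strand and counted inside the palindrome too, occurs in 17.8% of all 32851 such windows, and the palindrome in 1.55%. Counted by gene, with any of its windows, the shares over all 27025 genes were 19.8% and 1.77%. Of 35 early target genes with a window, 27 (77.1%) held the core and 5 (14.3%) the palindrome: Areg, Btg2, Dusp1, Maff and Sst. Counted by window, 57.1% of the 56 windows of these genes held the core and 8.93% the palindrome. These genes entered the list as known CREB targets, so the shares describe the list.

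Growth factor early genes, many shared with the list above, were measured for the kinase branch. Of 49 genes 47 were kept, with a median of -0.04, 5 higher and 4 lower. Egr3, an early zinc finger factor, gave 0.59 (42.5 and 69.1), Plk3, a stress kinase, 0.51 (128.5 and 182.6) and Etv5, an Ets factor, -0.60 (71.9 and 40.1), each on 1 kept probe set. A second, dim probe set of Etv5 gave -0.11, and the median over both was -0.35. Egr1 read 864.9 and 831.9 (0.00). Genes of the Gq branch, with phospholipase C, protein kinase C and calcineurin, had 25 of 35 kept and a median of 0.02 that was below 0 in the other scalings, with 1 higher and 0 lower. That 1 was Nfatc2, a calcineurin-dependent factor, at 0.56 (38.4 and 61.2) on its only kept probe set. Its 3 other probe sets gave -0.38, -0.05 and 0.04, and the median over all 4 was 0.00, so that difference was not repeated. Stim1, a calcium sensor, gave 0.28 (43.4 and 53.6), and 1.39 on a dim probe set (10.3 and 50.6). Prkcd, a protein kinase C, gave -0.20 (401.3 and 334.4). Nfatc1 gave -0.18 and -0.43 on its kept probe sets.

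Known PTH and PTHrP targets of bone and cartilage showed few differences past 0.32. Of 38 genes 20 were kept, with a median of -0.04, 0 higher and 3 lower. The 3 lower were Sox9, Igf1 and Ptgs2. Sox9, the master factor of cartilage, read 200 with carrier and 112.4 with PTHrP (-0.70), and its other probe set, under the filter, gave -0.27. On the WT arrays the kept Sox9 probe set read 172.4 in the control and 147.8 with PTHrP, a difference of -0.03 after centring. The other Sox9 probe set gave 0.41 there. Igf1 read 63.3 and 36.8 (-0.53), while its 2 dim probe sets gave 0.36 and -0.07, so its probe sets disagreed. The 3 kept probe sets of Ccnd1, the G1 cyclin, gave 0.18 to 0.24, and Sfrp4, a secreted Wnt inhibitor, 0.19 (106.5 and 118.3). Tnfsf11 (RANKL, the osteoclast factor) and Mmp13 (a collagenase), classical PTH targets in osteoblasts, read under 6 on every R150C probe set. Of 26 cartilage genes 4 were kept. Among them Col2a1, the cartilage collagen, read 1481.0 and 1153.9 (-0.30), and Matn2, a matrilin, 54.4 and 69.7 (0.34).

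Among hedgehog genes the receptor and the Gli factors, with Igfbp3 of the series title, were under the filter. Of 27 hedgehog genes 12 were kept, with a median of 0.07, 3 higher and 1 lower. Besides Gas1, Foxc2, a forkhead factor, was higher at 0.43 (645.2 and 845.7), and Gsk3b, a kinase that marks Gli proteins for processing, lower at -0.42 (125.2 and 85.4). Evc, a cilium protein gene, gave -0.17 (132.0 and 110.4). The receptor gene Ptch1 read 28.0 with carrier and 36.7 with PTHrP. The Gli factors read 19.2 and 22.7 (Gli1), 30.9 and 28.1 (Gli2), and 24.2 and 18.1 (Gli3). All 4 genes were under the filter on every probe set. Igfbp3, an IGF binding protein, read 1.9 and 14.4, both under its WT readings of 24.2 and 23.6. Of 20 genes of the IGF axis 10 were kept, with a median of 0.06, 1 higher and 1 lower. The higher one was Irs1, an adaptor of the insulin and IGF receptors, at 0.34 (360.0 and 442.0), and the lower one Igf1. Pappa, a protease that cleaves IGF binding proteins, gave 0.22 (44.6 and 52.0), and Igf2r, a receptor that clears IGF, -0.03 and -0.22.

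**Figure D4:**
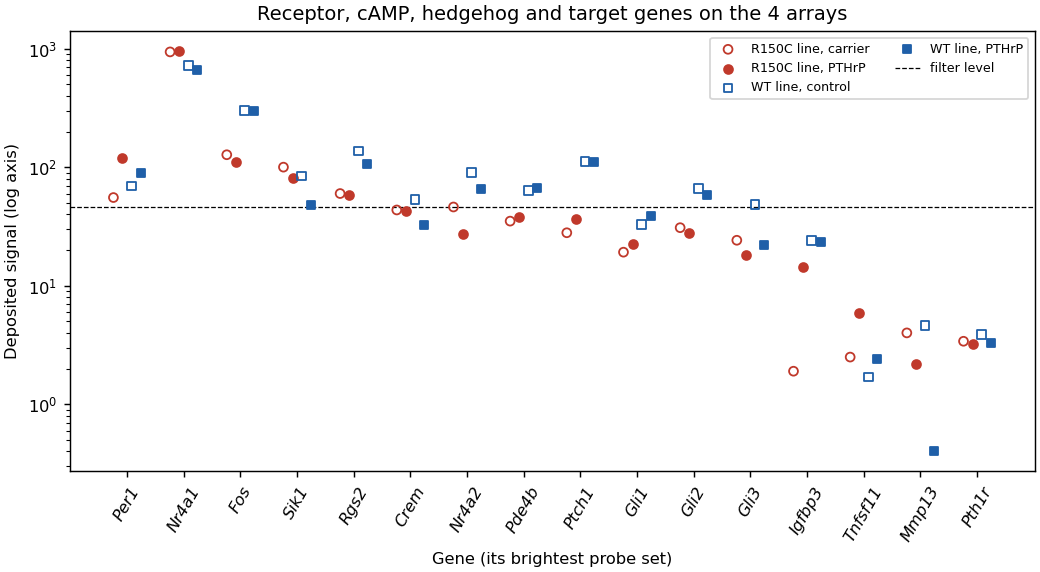
Deposited signal on a log axis for the brightest probe set of 16 genes of the receptor, cyclic AMP, hedgehog and PTH target lists, with 1 point per array (circles R150C, squares WT, filled with PTHrP) and the filter level of 46.4 dashed. Only Per1, Nr4a1, Fos, Sik1 and Rgs2 lie above the filter in the R150C line, and of these Per1 shows the widest step between the R150C points (55.5 and 118.7); signals of different genes cannot be compared.

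Clock genes other than Per1 stayed close together. Of 22 genes 14 were kept, with a median of -0.06, and 1 was higher (Per1) and 1 lower (Rora, a nuclear receptor, at -0.35, 57.0 and 39.4). The other Rora probe sets, under the filter, gave -0.08 and -0.10, and the median over all 3 was -0.10, which is not past 0.32. Nfil3, a repressor, gave -0.30 (105.7 and 79.3), and Timeless 0.19 (99.0 and 110.5). Among 33 kept genes of the BMP, TGF-beta, Wnt and Notch pathways (47 on the array), 1 was higher and 1 lower. Their median was 0.01, and below 0 in the other scalings. Lrp6, a Wnt coreceptor, gave 0.75 (50.2 and 91.6), or 0.42 with its dim probe set, and Smad6, a BMP inhibitor, -0.36 (187.1 and 136.5). Id2, a BMP target, gave 0.29 (48.0 and 59.7), and Grem1, a BMP antagonist, -0.25 (256.1 and 203.9). Of 29 cytokine, chemokine and NF-kB genes 19 were kept, with a median of -0.02 and 2 each way. All 3 kept probe sets of Vcam1, an adhesion molecule, were above 0 (0.14 to 0.45). Il11, an IL-6 family cytokine, gave -0.42 (99.0 and 66.9), and Ackr3, a scavenger receptor of chemokines, 0.48 (58.6 and 84.0).

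Fibroblast and matrix genes lay below the other genes. Of 38 genes 36 were kept, with a median of -0.08 (-0.13 without centring), 11 above 0 and 25 below, and 0 were higher and 2 lower. Of the 24 with more than 1 kept probe set, 10 were below 0 in all and 2 above 0 in all. Timp2, an inhibitor of matrix proteases, was below 0 on all 5 of its kept probe sets. They gave -0.09 to -0.88, the smallest from the brightest, which read 3700.7 and 3348.0. Fn1, fibronectin, read 6377.8 and 5247.8 on its brighter probe set and 143.8 and 96.3 on the other (-0.23 and -0.46). Lox, the lysyl oxidase that crosslinks collagen, gave -0.16 to -0.34 on 3 probe sets. On the upper side S100a4, a calcium binding protein, gave 0.26 (5088.3 and 5857.6) and Thy1, a surface glycoprotein, 0.18 (339.2 and 371.6). The WT line gave the list a median of 0.28, against 0.17 for all kept genes. The Gapdh ratio was higher with PTHrP in both lines, and its part in these list medians was not tested.

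Genes of cholesterol synthesis lay above the other genes. Of 22 genes 21 were kept, with a median of 0.14 (0.07 to 0.10 in the other scalings), 16 above 0 and 5 below, and 3 were higher and 0 lower. Of 9 with more than 1 kept probe set, 5 were above 0 in all and 0 below 0 in all, against 676 and 396 of all 2390 such genes. Insig2, which holds back SREBP activation, gave 0.27 and 0.37. Msmo1, a sterol oxidase, gave 0.36 (1234.9 and 1537.2) and Pmvk, a mevalonate pathway kinase, 0.51 (66.9 and 97.6). Among the 5 below 0 were Srebf1, the SREBP gene, at -0.13 (203.2 and 177.5), and Fdps, farnesyl diphosphate synthase, at -0.07 (1054.2 and 969.3). The lowest gene of the list stood at -0.20. In the WT line the list's median was 0.00, below the 0.17 of all genes there.

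Subunits of oxidative phosphorylation were narrow in range. Of 62 genes 61 were kept, with a median of 0.05 (0.00 without centring and with quantile normalization), 4 higher and 0 lower. Of 34 with more than 1 kept probe set, 17 were above 0 in all and 0 below 0 in all. Uqcr10, of complex III, read 464.0 and 676.3 on its brightest probe set, and its 3 probe sets gave 0.42 to 0.58. Ndufc2, of complex I, gave 0.39 and 0.45. Among the 18 genes below 0 were Ndufa1, also of complex I, at -0.19 (1623.7 and 1368.5), and Cox4i1, of complex IV, at -0.14 (2047.5 and 1792.8). In the WT line the list's median was 0.39. Amino acid and endoplasmic reticulum stress genes had 30 of 33 kept and a median of -0.01, with 3 higher and 0 lower. Herpud1, of protein quality control, gave 0.30 and 0.51, and Slc3a2, an amino acid transporter chain, 0.41 (912.0 and 1170.8). Sesn2, a stress sensor, was just short of the threshold at -0.32 (69.5 and 50), and Manf, a secreted protein of the endoplasmic reticulum, -0.27 (1330.9 and 1062.2).

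**Figure D5:**
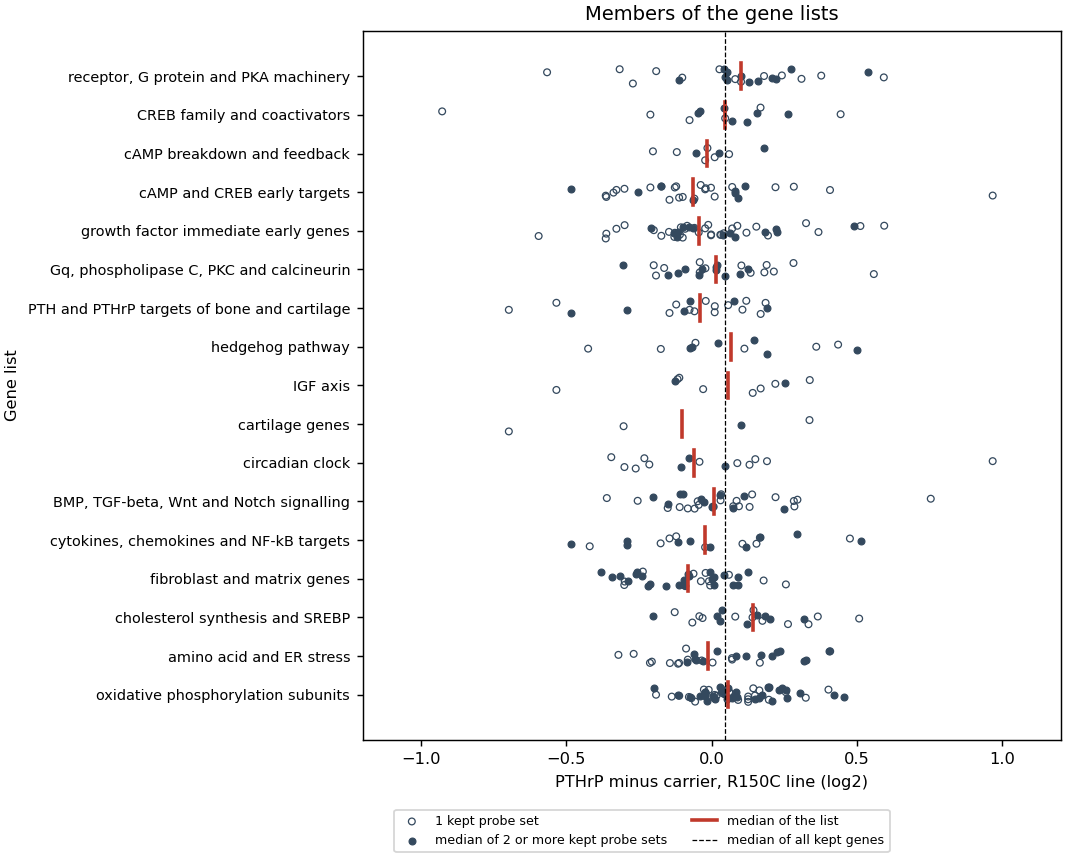
Each point is a kept gene of a list, placed at its difference (PTHrP minus carrier in the R150C line, log2); filled points are medians of 2 or more kept probe sets, open points rest on 1, red bars are list medians and the dashed line is the median of all kept genes (0.04). The list medians lie between -0.10 and 0.14, and the points farthest out, such as Per1 (0.97) and Creb1 (-0.93), are open.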

How the data were processed

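RNA of CH10T1/2 cells was hybridised to 4 arrays, 1 per group, so no grouping beyond the labels was needed. The deposited values are fluorescence intensities on a linear scale, which the submitters' processing notes credit to Affymetrix Expression Console. The sources used here give neither its version nor how probes were summarised. The mean after trimming 2% at each end was the same on all arrays, so the deposited intensities carry a global scaling, and the depth of an array is not a count. Of 22690 probe sets, 64 controls were left out. Of the rest, 20380 had 1 gene symbol in the platform annotation, 691 several and 1555 none. Only those with 1 symbol named genes, updated through RefSeq on GRCm38.p6 (20351 matched by Entrez identifier).

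From these values, log2(signal + 16) minus each array's median was computed with Python 3.11.15, pandas 2.3.3 and NumPy 2.4.6, and plotted with matplotlib 3.10.9. Differences are values with no test, since each side has 1 array. The agreement step was tested on simulated data. The text names the 10 genes each way whose kept probe sets share a sign and have the largest smallest difference, up to 2 genes each way from each of the 17 pathway lists (the naming rule also covered the 6 lists of other cell types, which are given by counts and sums instead), a fixed set of receptor, cyclic AMP and hedgehog genes, and the 5 most extreme probe sets each way. Genes outside this rule (Gnas, Prkaca, Fosb, Inhba, Maff, Tiparp, Btg2, Hbegf, Has2, Dusp1, Egr1, Lox, Areg, Sst, Insig2, Vim, Pdgfra, Acta2) were chosen after their values were seen. The comparison, lists and genes were chosen with earlier results of these data known. Pthlh had no probe set matched here. Alternatives changed the pseudocount, the centring, the filter, the fold and the probe set that stands for a gene.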

Additional observations from a re-analysis of the deposited data

Results flagged for a closer look

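Of the 20 genes named for the largest smallest difference in the R150C line, 6 had all kept probe sets on the opposite side of 0 in the WT line. With 1 array per group the difference between the lines was not tested. Adcy3 gave a median of 0.54 in the R150C line and -0.17 in the WT line. Its probe sets under the filter went the other way in the WT line. One gave -0.17 in the R150C line and 0.10 in the WT line, and the other 0.30 and 0.37. The other 5 were lower with PTHrP in the R150C line: Clu (-0.53, and 0.69 in the WT line), Flcn (-0.64 and 0.23), Hspb1 (-0.61 and 0.56), H2ac19 (-0.41 and 0.32) and Mepce (-0.34 and 0.33). The WT comparison as a whole lay above 0, with a median of 0.17 over all kept genes. In 5 of the 20, Gas1, Spcs1, Akr7a5, E2f1 and Loxl4, all kept probe sets lay on the same side in both lines. Of all 1072 genes with 1 sign in the R150C line, 195 (18.2%) lay all on the opposite side in the WT line and 400 (37.3%) all on the same side. Those 1072 pool genes above and below 0 in the R150C line. In the WT line 960 of 2390 genes had all kept probe sets above 0 and 218 all below 0. A dim Clu probe set gave 0.25 in the R150C line and -0.38 in the WT line, against the kept ones. Both kept Clu probe sets, and the larger R150C differences of Flcn, Hspb1 and H2ac19, came from _x_at probe sets. By design these can bind transcripts of more than 1 gene. The genes were picked for their R150C values.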

How the results depend on the processing

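No paired analysis was possible because each group has 1 array and the labels give no replicate numbers, and no replicate could be left out. The counts at 2-fold were 22 higher and 8 lower. They were 34 and 14 with a pseudocount of 4, 6 and 1 with 64, 12 and 1 when the filter lay at the 75th percentile of brightness, and 99 and 135 with no filter. They were 15 and 8 after quantile normalization and 16 and 9 with arrays centred on the kept probe sets. Without _x_at probe sets, an alternative added after the data were seen, they were 15 and 5. The count of genes at least 1.5-fold apart in all kept probe sets was 0 each way under all 3 other scalings. It was 2 higher with a pseudocount of 4, and 3 higher and 4 lower with no filter, while at the smaller difference of 0.32 it was 28 and 11. The median of the macrophage and blood list was -0.23, and 0.027 with no filter, which adds its dim genes. Signal near the floor limits Pth1r, Igfbp3, the Gli genes, Tnfsf11 and Mmp13.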
